A study of Rattus norvegicus with 12 samples.

Results

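Ppp2r2b, P2rx2, Ptk2b, Map2 and Dlg4, a set of genes linked to neurons, were followed on 12 single-colour Agilent arrays of rat thoracic aorta. They are 5 of the 38 genes that could be named among 38321 probes, and each was measured by 1 probe with 10 replicate spots per array. The genes were chosen by their levels on the treated arrays, which differed widely between arrays of the same group, so those levels are given as a description, with no test. Each probe was identified by its RefSeq accession and the reference table of rat genes.

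All rats were male, and each group had 3 arrays. The SHR-Bh group were spontaneously hypertensive rats given a high dose of BSJY, a preparation of herbal granules dissolved in water. The SHR-Ca group were spontaneously hypertensive rats given captopril, which inhibits angiotensin-converting enzyme. The SHR-C group were spontaneously hypertensive rats given drinking water, and the WKY group were Wistar-Kyoto rats, the strain commonly used as their normotensive counterpart, also given drinking water. Dosing was once a day by gavage for 16 weeks from an age of 12 weeks, while the labels give an age of 32 weeks for every sample, and the sources used here do not resolve the difference. The labels' treatment text also says that the aorta was irradiated, with no dose or time. They do not say whether an array held the RNA of 1 rat, so each p-value reflects only how far these samples spread, which may be technical.

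Ppp2r2b encodes a regulatory B subunit of protein phosphatase 2A, a serine and threonine phosphatase whose regulatory subunits set where the catalytic subunit acts, and this subunit is most abundant in brain. P2rx2 encodes a cation channel opened by extracellular ATP, found on sensory and autonomic neurons, and ATP is a co-transmitter of the sympathetic nerves that run along arteries. Ptk2b encodes Pyk2, a calcium-responsive tyrosine kinase related to focal adhesion kinase, which is abundant in brain and is also present in vascular smooth muscle. Map2 encodes a microtubule-associated protein of neuronal dendrites, and Dlg4 encodes PSD-95, a scaffold of the postsynaptic density. A thoracic aorta is mainly smooth muscle, endothelium and connective tissue, and carries nerve fibres in its outer layer.

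A level below is the log2 processed intensity of a probe relative to the 75th percentile of its array, averaged over replicate spots. The flag for a spot well above background was set by the scanner software, and a probe counted as well above background on an array if at least 50% of its spots had it. Levels of different genes come from different probes and are not set against each other. Ppp2r2b and Ptk2b were well above background on all 12 arrays, P2rx2 and Map2 on 8, and Dlg4 on 6.

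The arrays differed in brightness between strains. The share of probes well above background ran from 51.2% to 68.6% on the SHR arrays and from 74.0% to 87.9% on the WKY arrays. The 75th percentile of intensity was between 109.8 and 190.2 for SHR arrays and between 182.0 and 384.8 for WKY arrays. The WKY arrays were scanned together, 625 days after the last SHR array, so strain and scan session cannot be told apart. SHR-Bh 2, SHR-Bh 3 and SHR-Ca 1 stood apart from the other SHR arrays on the second principal component of all tested probes (9.44% of the variance), at -86.6, -88.3 and -75.0, against 8.84 to 81.9 on the other 6 SHR arrays and -21.6 to 38.1 on the WKY arrays. Groups follow the array titles, and no gene named on the array checks which treated array had which treatment, so each SHR-Bh and SHR-Ca mean and range rests on those titles. Precision is limited throughout by having 3 arrays a group. Of 75 genes on 11 lists of neurons, sympathetic nerve, Schwann cells, PP2A subunits, P2X receptors, focal adhesion kinases, smooth muscle, endothelium, fat, fibroblasts and macrophages, 5 were named on the array, and these were the 5 genes themselves. The tissue label could therefore not be checked against smooth muscle or endothelial markers, and no marker of a nerve or another cell type could be set beside the results.

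Ppp2r2b, the phosphatase subunit, was high or low on a treated array with nothing in between. Its level was 1.42, -2.73 and -2.79 on SHR-Bh arrays 1, 2 and 3. It was -3.22, 1.73 and 2.53 on SHR-Ca arrays 1, 2 and 3. The SHR-C arrays had 1.67, 1.69 and 1.33, and the WKY arrays had -2.93, -2.60 and -2.21. Array 1 of SHR-Bh and arrays 2 and 3 of SHR-Ca were thus within or above the SHR-C range, while SHR-Bh arrays 2 and 3 lay within the WKY range and SHR-Ca array 1 below it. In processed intensity the low arrays stood at 27.8, 21.6 and 14.5, and the treated arrays that were high at 293.9, 609.5 and 770.2. Both kinds of array gave a signal well above background on every spot used.

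**Figure D1:**
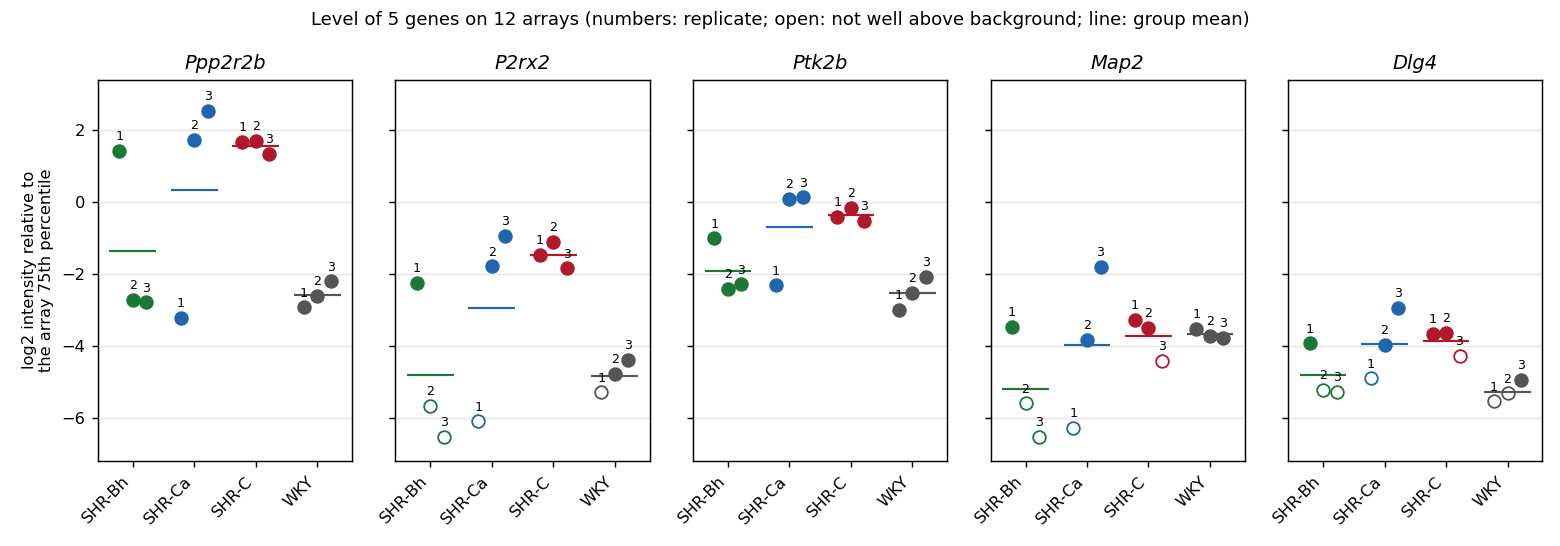
Level of each gene (log2, relative to the 75th percentile of its array) on the 12 arrays, by group, with the replicate number beside each point, open points where the probe was not well above background, and a line at the group mean of 3 arrays. For all 5 genes SHR-Bh 2, SHR-Bh 3 and SHR-Ca 1 have the lowest values of the 9 SHR arrays, with SHR-C 3 also not well above background for Map2 and Dlg4.

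Replicate spots give the technical spread of the Ppp2r2b probe within an array, not the spread between samples. The SD between spots of this probe had a median of 0.072 and a highest value of 0.20 over the 12 arrays. The lowest spot on SHR-Bh 1 was 3.70 above the highest spot on SHR-Bh 3, and the lowest spot on SHR-Ca 2 was 4.60 above the highest on SHR-Ca 1. The arrays of each of these pairs shared a scan session. The part of the session in the split was not tested. SHR-Bh 2 was scanned by itself, at array position 3, which no array of the session of SHR-Bh 1 and SHR-Bh 3 held.

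The reference table of promoter windows held 3 start sites of Ppp2r2b, 1 of Map2 and 1 of Dlg4. The 3 Ppp2r2b windows are shown because this gene was well above background on both the high and the low treated arrays, and the probe does not tell which start was used. They come from RefSeq on build GRCr8, run 5′ to 3′ from 250 bases before to 50 bases after the start, and capitals mark a match on either strand to one of 4 short motifs. These were TGACG, the core of a cyclic AMP response element, the E-box CANNTG, the GC box GGGCGG, and the CCAAT box.

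Ppp2r2b start at chr18:35331566-35331865 (- strand): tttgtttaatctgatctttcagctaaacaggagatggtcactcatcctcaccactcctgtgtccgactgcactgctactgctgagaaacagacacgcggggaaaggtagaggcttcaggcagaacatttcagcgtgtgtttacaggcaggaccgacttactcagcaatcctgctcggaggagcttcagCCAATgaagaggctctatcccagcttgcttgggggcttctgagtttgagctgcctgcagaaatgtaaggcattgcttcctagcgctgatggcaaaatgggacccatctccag

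Ppp2r2b start at chr18:35202965-35203264 (- strand): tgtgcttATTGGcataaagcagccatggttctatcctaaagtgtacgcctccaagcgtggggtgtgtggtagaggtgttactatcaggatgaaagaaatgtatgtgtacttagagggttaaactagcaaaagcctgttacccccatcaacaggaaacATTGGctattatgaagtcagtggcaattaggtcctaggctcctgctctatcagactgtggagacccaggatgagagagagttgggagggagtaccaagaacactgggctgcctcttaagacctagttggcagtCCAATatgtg

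Ppp2r2b start at chr18:35164967-35165266 (- strand): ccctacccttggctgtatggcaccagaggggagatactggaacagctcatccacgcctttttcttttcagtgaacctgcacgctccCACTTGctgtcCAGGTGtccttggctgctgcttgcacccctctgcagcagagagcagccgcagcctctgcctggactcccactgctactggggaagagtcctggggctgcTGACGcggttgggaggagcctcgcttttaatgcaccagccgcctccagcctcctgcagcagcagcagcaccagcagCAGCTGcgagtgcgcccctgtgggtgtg

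The first of these windows held 1 CCAAT match and the second 3, with no other match. The window of the third start held 3 CANNTG matches and 1 TGACG match and had a GC content of 62.3%, against 51.3% in the first and 47.0% in the second. Map2's window had 1 CANNTG match and Dlg4's had 1 CCAAT match. None of these 5 windows held GGGCGG. Among all 33469 windows of 300 bases, 72.1% held CANNTG, 37.5% CCAAT, 33.1% GGGCGG and 21.2% TGACG, and a match in a window is no measured binding site. No motif of the 4 was found in all 5 windows.

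P2rx2, the ATP-gated channel, was low on the same treated arrays as Ppp2r2b. Its level was -2.24, -5.67 and -6.53 on SHR-Bh arrays 1, 2 and 3, and -6.10, -1.79 and -0.95 on SHR-Ca arrays 1, 2 and 3. On SHR-C arrays it was -1.47, -1.10 and -1.85, and on WKY arrays -5.29, -4.78 and -4.40. No spot on SHR-Bh 2, SHR-Bh 3 or SHR-Ca 1 was well above background, nor was any on WKY 1, so these 4 arrays have no measured order. The intensities of 3.62 on SHR-Bh 2, 1.61 on SHR-Bh 3 and 1.98 on SHR-Ca 1 leave the true distance below the other arrays unknown. On SHR-Bh 1 every spot was well above background at an intensity of 23.2, and this array lay just below the SHR-C range.

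Ptk2b, the tyrosine kinase, moved the same way over a smaller span. Its level was -1.01, -2.41 and -2.29 on SHR-Bh arrays 1, 2 and 3, and -2.32, 0.09 and 0.13 on SHR-Ca arrays 1, 2 and 3. The SHR-C arrays had -0.42, -0.15 and -0.53, and the WKY arrays -3.01, -2.52 and -2.07. The arrays low for Ppp2r2b were all inside the WKY range here, SHR-Bh 1 lay between the SHR-C and the WKY arrays, and SHR-Ca 2 and 3 lay above the SHR-C arrays. The gap between the lowest spot on the higher array and the highest spot on the lower one was 1.05 between SHR-Bh 1 and SHR-Bh 3 and 2.16 between SHR-Ca 2 and SHR-Ca 1. The SD between spots of 1 array had a median of 0.078.

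**Figure D2:**
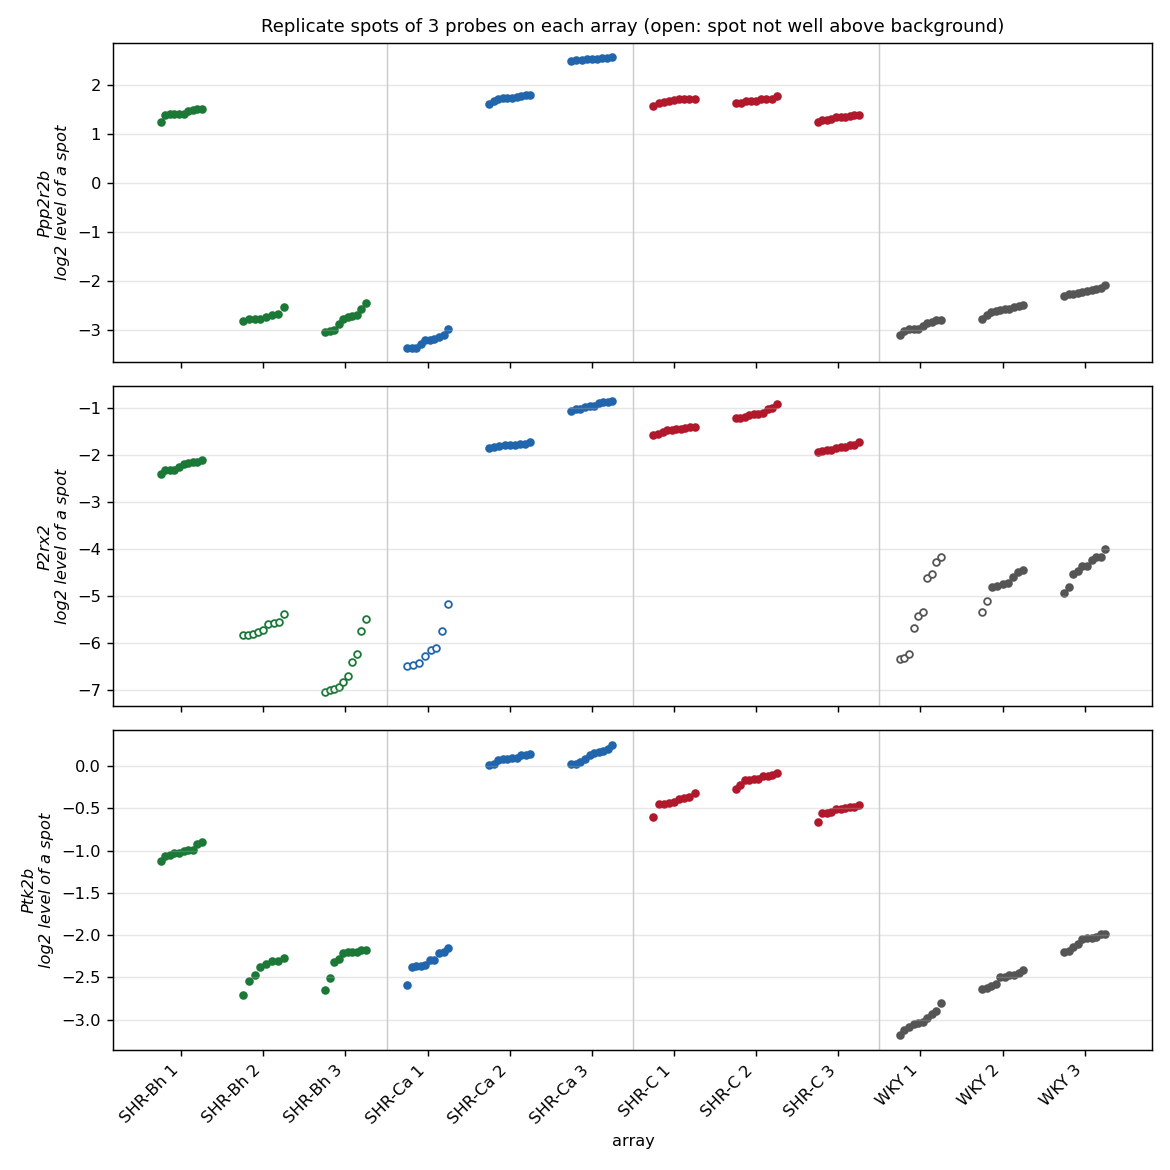
Level of every replicate spot used (log2 relative to the array's 75th percentile) for Ppp2r2b, P2rx2 and Ptk2b on each of the 12 arrays, sorted within an array and open where the spot was not well above background. Spots of SHR-Bh 1, SHR-Ca 2 and SHR-Ca 3 lie above all spots of SHR-Bh 2, SHR-Bh 3 and SHR-Ca 1 for each of these genes.

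Map2, the dendritic microtubule protein, was not well above background on 4 of the 12 arrays. Its level was -3.47, -5.60 and -6.53 on SHR-Bh arrays 1, 2 and 3, and -6.28, -3.84 and -1.80 on SHR-Ca arrays 1, 2 and 3. It was -3.28, -3.50 and -4.41 on SHR-C arrays and -3.53, -3.72 and -3.78 on WKY arrays. SHR-Bh 2, SHR-Bh 3, SHR-Ca 1 and SHR-C 3 were not well above background. These 4 arrays have no measured order among themselves, and SHR-Ca 3, at an intensity of 38.3, was the highest of all 12.

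Dlg4, the postsynaptic scaffold, was well above background on 6 of the 12 arrays. Its level was -3.93, -5.22 and -5.29 on SHR-Bh arrays 1, 2 and 3, and -4.91, -3.97 and -2.94 on SHR-Ca arrays 1, 2 and 3. SHR-C arrays had -3.67, -3.64 and -4.27, and WKY arrays -5.54, -5.32 and -4.95. It was well above background on 1 of 3 SHR-Bh arrays, 2 of 3 SHR-Ca arrays, 2 of 3 SHR-C arrays and 1 of 3 WKY arrays, so it was in no group well above background on every array and was not tested. The lowest spot on SHR-Ca 2 lay -0.06 from the highest spot on SHR-Ca 1, so for this gene the spots of those arrays met.

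In all 5 genes the lowest 3 values of the 9 SHR arrays were on SHR-Bh 2, SHR-Bh 3 and SHR-Ca 1. For Map2 and Dlg4, SHR-C 3 was not well above background either, so its place above them is not a measured order. Over 29514 tested probes with a value on every array this held for 5.5%, and the same arrays were the highest 3 for 6.15%, so many probes without a gene name parted these arrays too. Of the 28 other named genes tested, 2 had the same lowest 3 arrays, Cdh2, which encodes N-cadherin, and Fgf2, a growth factor, with Cdh2 named after its values were seen. The order held for all 5 genes with quantile normalization and for Ppp2r2b, P2rx2 and Ptk2b with normexp background correction, where it did not hold for Map2 and Dlg4. The 5 genes were chosen by their levels on the treated arrays. The order they share is therefore a description in each setting, and is not a test against the 5.5%.

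The ranges within a treated group were wide for Ppp2r2b, which was measured on every array. In SHR-Bh the highest and lowest array differed by 4.21 for Ppp2r2b, 4.29 for P2rx2, 3.07 for Map2, 1.41 for Ptk2b and 1.36 for Dlg4. In SHR-Ca they differed by 5.76 for Ppp2r2b, a 54.0-fold distance, 5.15 for P2rx2, 4.49 for Map2, 2.45 for Ptk2b and 1.96 for Dlg4. The low ends of the P2rx2, Map2 and Dlg4 ranges in both treated groups are arrays not well above background, so their ranges and the shares below are not exact measurements. Of the tested probes, 99.4% had a smaller range than Ppp2r2b in SHR-Bh and 99.7% in SHR-Ca. The shares below P2rx2 were 99.5% in SHR-Bh and 99.4% in SHR-Ca, those below Ptk2b 85.0% and 93.9%, those below Map2 97.5% and 98.95%, and those below Dlg4 84.1% and 88.9%. These ranges chose the genes and are read as no more than that. The median range over all tested probes was 0.68 in SHR-Bh, 0.76 in SHR-Ca, 0.65 in SHR-C and 0.44 in WKY.

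The ranges within the groups given water are set beside these as a description. In SHR-C the range was 0.36 for Ppp2r2b, 0.74 for P2rx2, 0.37 for Ptk2b, 1.14 for Map2 and 0.63 for Dlg4. In WKY it was 0.72, 0.89, 0.94, 0.25 and 0.59 for the same genes in that order. The low end was SHR-C 3 for Map2 and Dlg4 in SHR-C, and WKY 1 for P2rx2 and Dlg4 in WKY. The probe was not well above background on the array in any of these cases. These ranges and their shares below are therefore not exact measurements. Of the tested probes, 18.1% had a smaller range in SHR-C than Ppp2r2b, 58.9% than P2rx2, 19.4% than Ptk2b, 77.6% than Map2 and 48.4% than Dlg4. In WKY the share was 76.5% for Ppp2r2b, 84.2% for P2rx2, 85.5% for Ptk2b, 22.8% for Map2 and 67.3% for Dlg4, so Ptk2b stood about as high there as in SHR-Bh. Among the 28 other named genes tested, SHR-Bh had a median range of 0.55 and a widest of 2.40, and SHR-Ca a median of 0.78 and a widest of 2.21. With normexp, which adds a constant to every intensity and so by construction draws dim probes together, Ppp2r2b ranged over 2.52 in SHR-Bh and 3.58 in SHR-Ca, P2rx2 over 0.93 and 1.15, and Ptk2b over 0.77 and 1.26.

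**Figure D3:**
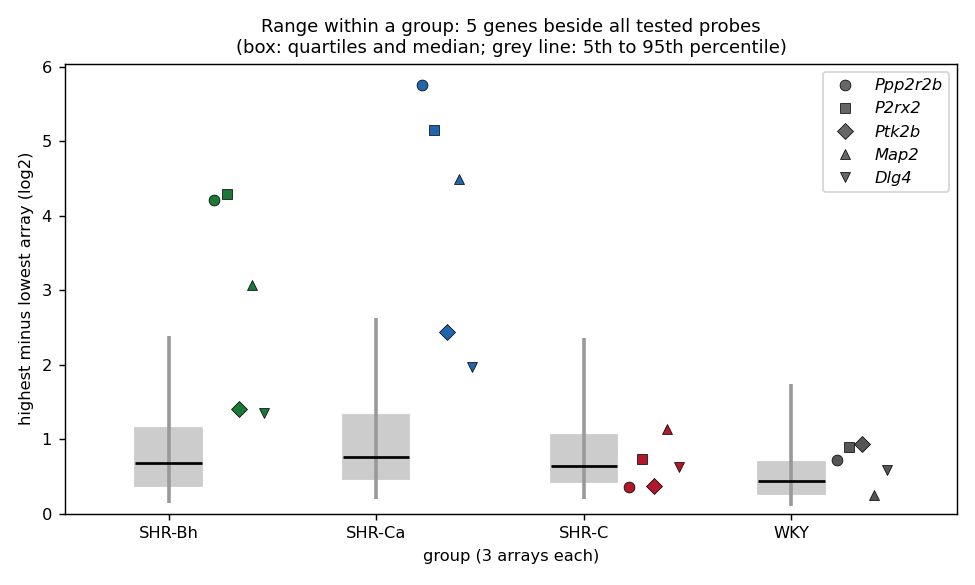
Highest minus lowest of the 3 arrays in each group (log2) for the 5 genes, beside all tested probes drawn as a box from the first to the last quartile with the median, and a grey line from the 5th to the 95th percentile. Ppp2r2b reaches 4.21 in SHR-Bh and 5.76 in SHR-Ca, against 0.36 in SHR-C and 0.72 in WKY.

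Beside their place on the second principal component, the low arrays had the following quality values. Probes well above background made up 51.2% on SHR-Bh 2, the lowest of all arrays, 62.4% on SHR-Bh 3 and 58.0% on SHR-Ca 1. The 75th percentile was an intensity of 184.2, 149.2 and 135.5 on these arrays, inside the range of the SHR arrays. The median coefficient of variation between replicate spots, as the scanner software reports it, was 4.30%, 4.39% and 4.32% on them and 3.67% to 5.14% over the SHR arrays. The part of these measures in the split was not tested. On the first principal component, which held 69.5% of the variance and parted the strains, the 3 arrays stood at 69.9, 96.4 and 80.8 within the SHR span of 36.6 to 116.9, away from the WKY arrays at -262.2 to -252.7. RNA of a bulk sample cannot tell fewer cells of a type from less RNA per cell.

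Likeness between genes was taken as the root mean square difference over the 12 arrays after each probe's own mean was subtracted, so that 0 is an identical profile on the log2 scale. Ppp2r2b and P2rx2 were 0.53 apart, and P2rx2 ranked 30th of 29513 tested probes in closeness to Ppp2r2b, where the median probe was 2.48 away. Ptk2b and Dlg4 were 0.44 apart and Ptk2b and P2rx2 1.07. The pair farthest apart was Ppp2r2b and Map2, at 1.71. P2rx2 and Map2 were well above background on 8 of the 12 arrays and Dlg4 on 6. Distances and ranks that involve these genes are therefore not exact measurements. The treated arrays, whose levels chose the genes, enter every distance. Among the other named genes, Hsp90ab1 (0.88) and Pld1 (0.89) were nearest to Ptk2b, ranked 1491st and 1641st, and Fgf2 (1.04) was nearest to Map2, ranked 726th. The median probe was 1.42 from Ptk2b and 1.55 from Map2. Neither Hsp90ab1 nor Pld1 had the split of Ptk2b in SHR-Bh, where they ranged over 0.18 and 0.05, against 1.41. In SHR-Ca they ranged over 0.47 and 1.71, against 2.45 for Ptk2b.

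The probe nearest to Ppp2r2b had no gene name. It was ASRNV20015979, at a distance of 0.23, with levels of 3.21, -0.71 and -0.83 on SHR-Bh arrays 1, 2 and 3, and -1.84, 3.18 and 3.88 on SHR-Ca arrays 1, 2 and 3. On SHR-C arrays it had 3.11, 3.43 and 3.03, and on WKY arrays 2 and 3 -0.91 and -0.82, with WKY 1 just below them. This probe was well above background on all 12 arrays and showed the same split. It was picked as the nearest of 29513 probes over these same arrays. The shared split therefore follows from that choice and lends no support. The probe nearest to Ptk2b, ASRNV20024229, lay at 0.19 and was also unnamed.

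By mean level the order of the groups was SHR-C, SHR-Ca, SHR-Bh and WKY, from high to low, for Ppp2r2b, P2rx2, Ptk2b and Dlg4, and WKY, SHR-C, SHR-Ca and SHR-Bh for Map2. Ppp2r2b averaged -1.37 ± 2.41 in SHR-Bh and 0.35 ± 3.12 in SHR-Ca, while SHR-C averaged 1.56 ± 0.20 and WKY -2.58 ± 0.36 (SD, n = 3 each). P2rx2 averaged -4.81 ± 2.27 in SHR-Bh and -2.95 ± 2.76 in SHR-Ca, against -1.47 ± 0.37 in SHR-C and -4.82 ± 0.45 in WKY. Ptk2b averaged -1.90 ± 0.78 in SHR-Bh and -0.70 ± 1.40 in SHR-Ca, against -0.37 ± 0.19 in SHR-C and -2.54 ± 0.47 in WKY. Map2 averaged -5.20 ± 1.57 in SHR-Bh and -3.97 ± 2.25 in SHR-Ca, against -3.73 ± 0.60 in SHR-C and -3.68 ± 0.13 in WKY. Dlg4 averaged -4.81 ± 0.76 in SHR-Bh and -3.94 ± 0.98 in SHR-Ca, against -3.86 ± 0.35 in SHR-C and -5.27 ± 0.30 in WKY. In each of the 5 orders, neighbouring groups differed by less than the larger of their SDs. Apart from P2rx2 in SHR-C and Map2 in WKY, the means of P2rx2, Map2 and Dlg4 include arrays not well above background. Those means and SDs are therefore not exact measurements. For P2rx2, 1 of 3 SHR-Bh arrays and 2 of 3 WKY arrays were well above background, so the order of these groups is not measured. Dlg4 was well above background on every array in no group, so its order is not measured either. Nor is the order of the SHR groups for Map2, well above background on 1 of 3 SHR-Bh, 2 of 3 SHR-Ca and 2 of 3 SHR-C arrays. For Ppp2r2b the array nearest to the group mean was at -2.73 in SHR-Bh and at 1.73 in SHR-Ca, so neither mean stands for an array.

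SHR-C against WKY sets the 2 strains side by side without a drug, and the means use no treated array. The WKY arrays were scanned together after all SHR arrays, so strain and scan session cannot be told apart in this comparison. Of the 4 genes tested, 3 were higher in SHR-C and 1 did not pass, where 61.7% of all 29618 probes tested passed, 21.9% higher and 39.8% lower. Ppp2r2b was 4.14 higher (SE 1.38, 17.7-fold, limma adjusted p = 0.022), P2rx2 3.35 higher (SE 1.27, adjusted p = 0.038, well above background on 2 of 3 WKY arrays) and Ptk2b 2.17 higher (SE 0.61, 4.49-fold, adjusted p = 0.009). P2rx2 passed the filter on dim probes only through SHR-C, the group in which it was higher, so its call and the count of 3 lend no support beyond the values. Map2 differed by -0.05 (SE 0.99, adjusted p = 0.97), with 2 of 3 SHR-C arrays well above background. Dlg4, untested, was 1.41 higher (SE 0.49). The groups did not overlap for Ppp2r2b, P2rx2 and Ptk2b, and they overlapped for Map2. Of the tested probes, 26.9% were higher in SHR-C with no overlap. P2rx2 was tested only through SHR-C, so its separation lends no support beyond the values either. The Dlg4 values did not overlap, but SHR-C 3, WKY 1 and WKY 2 were not well above background. The separation of Dlg4, which passed no filter, is therefore not a measured order and is not set against that share. The median difference over all tested probes was -0.42.

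The spread of the treated arrays entered these standard errors, since all 4 groups share 1 estimate of it. With only SHR-C and WKY in the fit the SE was 0.25 for Ppp2r2b (adjusted p = 2.8e-05 in limma), 0.31 for P2rx2 (0.00011), 0.28 for Ptk2b (0.00049) and 0.32 for Map2 (0.89). In the fit of 4 groups the P2rx2 call was lost with the replicate number as a block (limma adjusted p = 0.063) and with the scan session as a random block (0.051). It was also lost without any 1 of the SHR-C or WKY arrays (0.062 to 0.098), and that of Ppp2r2b without WKY 1 (0.059), WKY 2 (0.052) or SHR-C 2 (0.053). The Ptk2b call held in each setting run. Under normexp Ppp2r2b differed by 2.84, P2rx2 by 1.37 and Ptk2b by 1.29, and under quantile normalization by 4.91, 4.47 and 2.98, while Map2 changed sign, to 0.49 and 1.22.

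**Figure D4:**
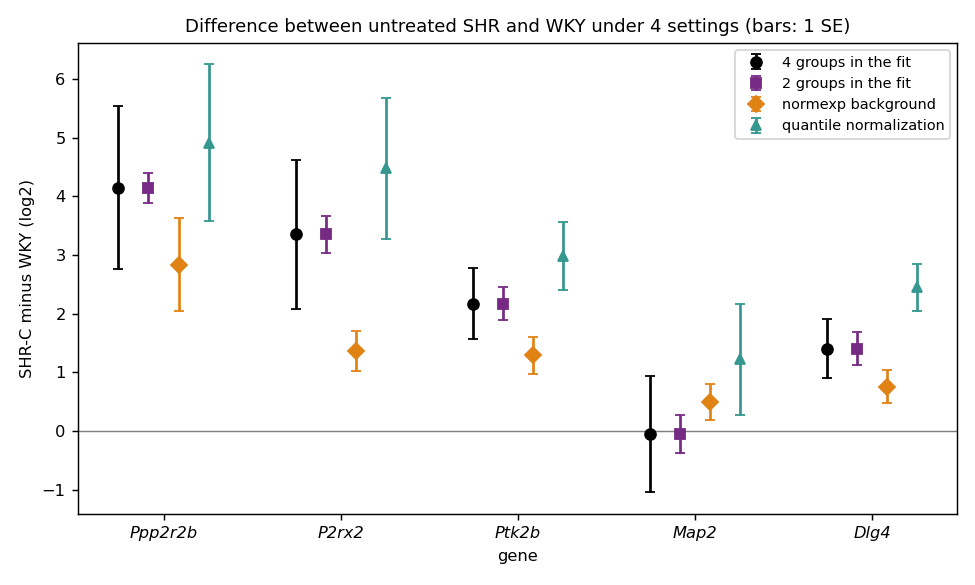
SHR-C minus WKY on the log2 scale for each gene under 4 settings, with bars of 1 SE. Ppp2r2b, P2rx2, Ptk2b and Dlg4 lie above 0 under all 4, and Map2 lies at -0.05 with 4 or 2 groups in the fit and at 0.49 and 1.22 with normexp and quantile normalization.

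The comparisons of the treatments with SHR-C ask what BSJY and captopril changed. They share the SHR-C arrays, and their differences carry the split within each treated group, so they are given as values. For P2rx2, Map2 and Dlg4 both treated means include arrays not well above background. The differences of these genes with all arrays in, here and below, are therefore not exact measurements. The same holds for them without any 1 SHR-Bh array. SHR-Bh minus SHR-C was -2.93 (SE 1.38) for Ppp2r2b, -3.34 (SE 1.27) for P2rx2, -1.54 (SE 0.61) for Ptk2b, -1.47 (SE 0.99) for Map2 and -0.95 (SE 0.49) for Dlg4. P2rx2 and Ptk2b were lower on every SHR-Bh array than on any SHR-C array, as were 9.79% of probes, and the other 3 genes overlapped. The SHR-Bh levels were among those that chose the genes. P2rx2 was also tested only through SHR-C, and it was well above background on 1 of 3 SHR-Bh arrays. This separation therefore lends no support beyond the values and is not a test against that share. Without SHR-Bh 1 the difference was -4.32 for Ppp2r2b, -4.63 for P2rx2, -1.98 for Ptk2b, -2.34 for Map2 and -1.39 for Dlg4. Without SHR-Bh 2 it was -2.25 for Ppp2r2b, -2.91 for P2rx2, -1.28 for Ptk2b, -1.27 for Map2 and -0.75 for Dlg4. Without SHR-Bh 3 it was -2.22 for Ppp2r2b, -2.48 for P2rx2, -1.34 for Ptk2b, -0.80 for Map2 and -0.71 for Dlg4.

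SHR-Ca minus SHR-C was -1.22 (SE 1.38) for Ppp2r2b, -1.47 (SE 1.27) for P2rx2, -0.33 (SE 0.61) for Ptk2b, -0.24 (SE 0.99) for Map2 and -0.07 (SE 0.49) for Dlg4, with overlap in all 5. SHR-Ca 1 set the sign in each of them. Without it the difference was 0.57 for Ppp2r2b, 0.11 for P2rx2, 0.48 for Ptk2b, 0.91 for Map2 and 0.41 for Dlg4. Without SHR-Ca 2 it was -1.91 for Ppp2r2b, -2.05 for P2rx2, -0.73 for Ptk2b, -0.31 for Map2 and -0.06 for Dlg4. Without SHR-Ca 3 it was -2.31 for Ppp2r2b, -2.47 for P2rx2, -0.75 for Ptk2b, -1.33 for Map2 and -0.57 for Dlg4.

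The treated groups were also set against WKY. SHR-Bh minus WKY was 1.21 (SE 1.38) for Ppp2r2b, 0.01 (SE 1.27) for P2rx2, 0.63 (SE 0.61) for Ptk2b, -1.52 (SE 0.99) for Map2 and 0.46 (SE 0.49) for Dlg4. SHR-Ca minus WKY was 2.93, 1.88, 1.84, -0.29 and 1.33 for the same genes in that order. Without SHR-Bh 1, SHR-Bh minus WKY was -0.18 for Ppp2r2b, -1.28 for P2rx2, 0.18 for Ptk2b, -2.39 for Map2 and 0.02 for Dlg4. Without SHR-Ca 1, SHR-Ca minus WKY was 4.71 for Ppp2r2b, 3.45 for P2rx2, 2.64 for Ptk2b, 0.86 for Map2 and 1.82 for Dlg4. Without SHR-Ca 3 it was 1.83, 0.88, 1.42, -1.38 and 0.83 for the same genes in that order. SHR-Bh minus SHR-Ca ran from -1.87 for P2rx2 to -0.87 for Dlg4, with overlap for all 5 genes.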

How the data were processed

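Total RNA of thoracic aorta was labelled with Cy3 and hybridised to 12 one-colour Agilent arrays, 3 per group by title. Per the file headers, the deposited intensity of each spot was background-subtracted and detrended within the array by Agilent Feature Extraction 11.0.1.1, the deposited flags (an other kind of value, 0 or 1) come from the same software, and no step between arrays is recorded. No spot was saturated.

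Outlier spots were left out, log2 intensity was averaged over a probe's spots and each array's 75th percentile subtracted. A probe was tested if at least 1 group had it well above background on its 3 arrays (29618 of 38321, 77.3%). All 4 groups were fitted in limma 3.58.1 (R 4.3.3) with Benjamini-Hochberg adjustment over all tested probes and a threshold of 0.05, and the fit was tested on simulated data. The genes, lists and tests were chosen with earlier results of these data known. Genes described by name were the 5 genes and, for each tested one, the 2 gene-named probes and 1 unnamed probe nearest in profile; Cdh2 falls outside this rule. Normexp (offset 50) used the median spot intensity.

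Arrays of 1 scan time were taken as a session. Same-numbered SHR-C and WKY arrays deviated together from their group means (r across probes of 0.477, 0.177 and 0.228 for numbers 1, 2 and 3), so the fit with that block stands beside a result whose call it changed. So did SHR-Bh and WKY arrays (0.308, 0.154 and 0.257), whose difference is given without a test. SHR-Ca and WKY arrays did not (-0.0966, -0.167 and -0.12). Between SHR groups, same-numbered arrays did not deviate together at all numbers either. The r values were 0.0849, -0.176 and 0.121 for SHR-Bh and SHR-C, and -0.0779, -0.167 and -0.206 for SHR-Ca and SHR-C. They were -0.55, -0.0994 and -0.3 for SHR-Bh and SHR-Ca. No pairs of different numbers are given as a background. Promoter windows matched 3 of the 5 genes.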

Additional observations from a re-analysis of the deposited data

How the results depend on the processing

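Ptk2b kept its direction and its call for SHR-C minus WKY in each setting run. Ppp2r2b ran from 3.97 to 4.33 without 1 array of these groups, and P2rx2 from 3.11 to 3.56. P2rx2 passed no longer with the scan session as a random block (3.48, limma adjusted p = 0.051) or with the replicate block (3.35, adjusted p = 0.063). That block changed no other call, and with only the 2 groups and the block in the fit, a setting chosen after the data were seen, P2rx2 passed (adjusted p = 0.00043). Map2, which never passed, turned to 0.49 with normexp, 1.22 with quantile normalization, 0.10 with the session block, 0.02 without WKY 1 and 0.29 without SHR-C 3, and without 1 array it lay between -0.28 and 0.29. Dlg4 moved to 0.76 with normexp and 2.45 with quantile normalization, and with no filter it was tested (limma adjusted p = 0.031). In that setting 20581 of 38321 probes passed. Dlg4 was well above background on 2 of 3 SHR-C and 1 of 3 WKY arrays, so this p-value lends no support beyond the values. The count of 18281 probes became 10830 with normexp and 9554 with the strict filter, which tests 17797 probes, and the share higher in SHR-C was 35.5%, against 57.1% with normexp, 47.7% with quantile normalization and 57.6% with the strict filter. The strict filter left out P2rx2 and Map2.

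With normexp, whose offset shrinks differences of dim probes, SHR-Bh minus SHR-C was -0.80 for P2rx2, -0.80 for Ptk2b, -0.25 for Map2 and -0.17 for Dlg4, and SHR-Bh minus WKY was 0.24 for Map2. The range in SHR-Bh and in SHR-Ca was then 0.93 and 1.15 for P2rx2, 0.73 and 0.74 for Map2, and 0.58 and 0.46 for Dlg4, and the shared lowest arrays held for 3 genes (4.07% of probes). With quantile normalization SHR-Bh minus WKY was 1.62 for Ptk2b, -0.11 for Map2 and 1.86 for Dlg4, and SHR-Ca minus WKY was 2.56 for Dlg4. With the scan session as a fixed block among SHR arrays, which left 3 residual degrees of freedom and linked SHR-Bh to SHR-C through SHR-Ca arrays, SHR-Bh minus SHR-C was -5.47 for Ppp2r2b, -5.91 for P2rx2, -2.55 for Ptk2b, -4.31 for Map2 and -2.15 for Dlg4, and SHR-Bh minus SHR-Ca was -3.21 for Map2. The cause of these shifts was not tested beyond the construction named.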
